A study of Mus musculus with 19 samples.

Results

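Fibroblasts of the mouse peritoneum taken 28 days after ovarian carcinoma cells were placed in the peritoneal cavity were compared with fibroblasts of the normal peritoneum. The comparison was made across every gene with enough counts, which came to 5980 of the 12799 genes in the table. The day 28 group had 5 libraries and the normal group 5, of 19 libraries in the series, each labelled as a biological replicate. The other 9 came from day 7 (5 libraries) and from the end stage (4 libraries). Day 28 mice were C57BL/6;Col1a1-YFP animals injected intraperitoneally with ID8 cells, a mouse ovarian carcinoma line carrying tdTomato. Normal mice had the same Col1a1-YFP transgene, and control animals received PBS alone. In both groups the yellow fluorescent protein was driven by Col1a1, the gene of a type I collagen chain, so the sort collected cells by the activity of that promoter. The labels give no age. The libraries were made by MARS-seq, which works from little RNA and counts tags near the 3′ end of polyadenylated transcripts. The comparison asks how far the fibroblasts of a tumour-bearing peritoneum differ from those of a healthy one at this later stage.

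Peritoneal fibroblasts lie under the mesothelium and make the collagens and proteoglycans on which implanting tumour cells settle. Interferon reaches such cells through receptors that activate the factor ISGF3, of which Irf9 is a subunit and which switches on genes that carry an interferon-stimulated response element (ISRE). Usp18 strips Isg15 from proteins and damps the interferon receptor. Fosb is a subunit of AP-1, the factor of the immediate-early response to stress and growth signals. Ldha is the lactate dehydrogenase subunit that the hypoxia-inducible factors raise when oxygen is short.

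The promoters of 3 genes show the elements through which interferon and hypoxia act, and are given because these pathways are followed in the results. Each is the 250 bases before the transcription start in RefSeq (GRCm38.p6), written 5′ to 3′ on the strand of the gene. Capitals mark GAAANNGAAA, the core of the ISRE, on either strand in Igtp, an interferon-induced GTPase, and in H2-T22, a class I antigen-presenting molecule. In Ldha they mark ACGTG, the core of the hypoxia response element, on either strand, and the copies there overlap where CACGTG reads the same on both strands.
Igtp, chr11:58199306-58199555, plus strand: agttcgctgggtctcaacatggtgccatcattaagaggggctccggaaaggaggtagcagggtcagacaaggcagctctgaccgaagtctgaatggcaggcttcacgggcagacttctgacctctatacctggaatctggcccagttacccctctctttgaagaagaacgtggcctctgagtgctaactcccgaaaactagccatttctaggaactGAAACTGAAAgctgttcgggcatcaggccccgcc
H2-T22, chr17:36042743-36042992, minus strand: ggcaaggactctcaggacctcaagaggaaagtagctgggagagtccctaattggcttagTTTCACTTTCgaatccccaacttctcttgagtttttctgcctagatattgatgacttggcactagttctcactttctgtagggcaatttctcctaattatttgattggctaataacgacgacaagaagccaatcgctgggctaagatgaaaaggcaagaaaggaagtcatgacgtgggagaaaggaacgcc
Ldha, chr7:46845554-46845803, plus strand: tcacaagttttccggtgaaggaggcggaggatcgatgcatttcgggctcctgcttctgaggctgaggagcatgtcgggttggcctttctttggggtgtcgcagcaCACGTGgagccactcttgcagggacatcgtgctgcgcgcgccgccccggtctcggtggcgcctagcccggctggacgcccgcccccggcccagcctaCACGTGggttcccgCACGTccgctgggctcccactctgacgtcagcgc
Of the tested genes, 22 of 30 interferon-stimulated, 13 of 14 class I and 21 of 24 hypoxia and glycolysis genes were matched to such a window. The ISRE core lay in 2.98% of all 32851 windows of this length, that is in 3.46% of 27025 genes, and in 9 of the 22 interferon-stimulated and 3 of the 13 class I genes. The hypoxia core lay in 16.6% of all windows, or 18.5% of genes, and in 12 of the 21 hypoxia and glycolysis genes. A match describes the letters and does not show a working site. No match says only that these letters are not in the window. Windows of Usp18 and Rtp4 were not used here.

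The libraries were shallow and unequal. Day 28 libraries held 66061 to 400488 counts (median 172313) and normal libraries 186032 to 784373 (median 304626). Day 28 replicates 1 and 2, at 66061 and 83998 counts, were the 2 shallowest, so 3 counts were worth 47.7 and 35.6 CPM there (counts scaled to the TMM-adjusted total over tested genes, the unit of level used throughout), against 4.14 to 17.3 CPM in normal libraries. These floors cover counting error only. In a principal component analysis of the 10 libraries, the first component (34.8% of the variance) placed day 28 replicate 1 at 52.0 and the other 9 libraries at -11.8 to 0.444. The second component (20.6%) placed day 28 replicate 2 at -40.4 and the others at 0.98 to 8.68. Neither library differed from the rest by label. The sort was checked on genes that define fibroblasts. All 13 fibroblast markers were tested, 11 of them with a positive log2 fold change, and together they summed to 51870.0 to 84740.0 CPM in day 28 libraries, against 56860.0 to 64790.0 CPM in normal libraries. Gsn, the actin-severing protein gelsolin, had the highest mean level over the 10 libraries, with 33768, 26432, 26084, 27851 and 22730.0 CPM in day 28 libraries, against 27056, 23195, 30353, 21198 and 18187 CPM in normal libraries. Ptprc, which marks all white blood cells, had 0 counts in all 10 libraries, but at this depth that does not show absence. Other macrophage markers were read at low counts. Cd68 had 23 counts over the day 28 libraries and 38 over the normal libraries, Lyz2 9 and 23, and Csf1r 10 and 20. These totals are not scaled to depth, which was lower at day 28, so they give no direction. Rn18s-rs5, a ribosomal RNA gene that polyadenylated libraries should hold little of, had 6531, 5578, 5971, 43768 and 5297 CPM in day 28 libraries and 11834, 50272, 8684, 3309 and 3309 CPM in normal libraries, with 1 library of each group standing far above the rest.

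Differences between day 28 and normal fibroblasts were small beside the spread between libraries. With edgeR's quasi-likelihood test, 0 of 5980 genes were called higher (0%) and 0 lower (0%) at a Benjamini-Hochberg adjusted p under 0.05, and the lowest adjusted p was 0.287, shared by 6 genes. DESeq2 and limma-voom also called 0, and the authors' deposited table holds 0 genes at an adjusted p under 0.05 (its lowest is 0.317). At an unadjusted p under 0.05, 173 genes stood higher (2.89%) and 249 lower (4.16%), 422 in all. Without day 28 replicates 1 and 2, 0 genes were called and 474 had such a p. DESeq2 had 445 such genes and limma-voom 579. The authors' deposited table has 641 among 12777 genes. All 5 day 28 libraries lay above all 5 normal libraries for 16 genes (0.268%) and below them for 47 (0.786%). The median log2 fold change of all tested genes was -0.02, and 48.1% were positive. No gene is therefore called in this comparison, and each value is given with its own error.

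How large a difference the intervals left out varied with the level of the gene. The 95% interval of the log2 fold change lay within a 2-fold difference in either direction for 2089 genes, 34.9% of those tested. Of the 310 genes at 500 CPM or more, 257 were bounded in this way, with a median half-width of the interval of 0.49. Of the 2533 genes under 50 CPM, 168 were, with a median half-width of 1.04. For most rare transcripts the interval therefore did not exclude a 2-fold difference. Its width holds both counting error and the spread between libraries, and it is not adjusted for the number of genes. A log2 fold change beyond 1 in either direction was estimated for 312 genes, 105 higher and 207 lower, and 195 of these had an unadjusted p under 0.05. The plot of fold change against level shows this widening towards the rare genes.

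**Figure D1:**
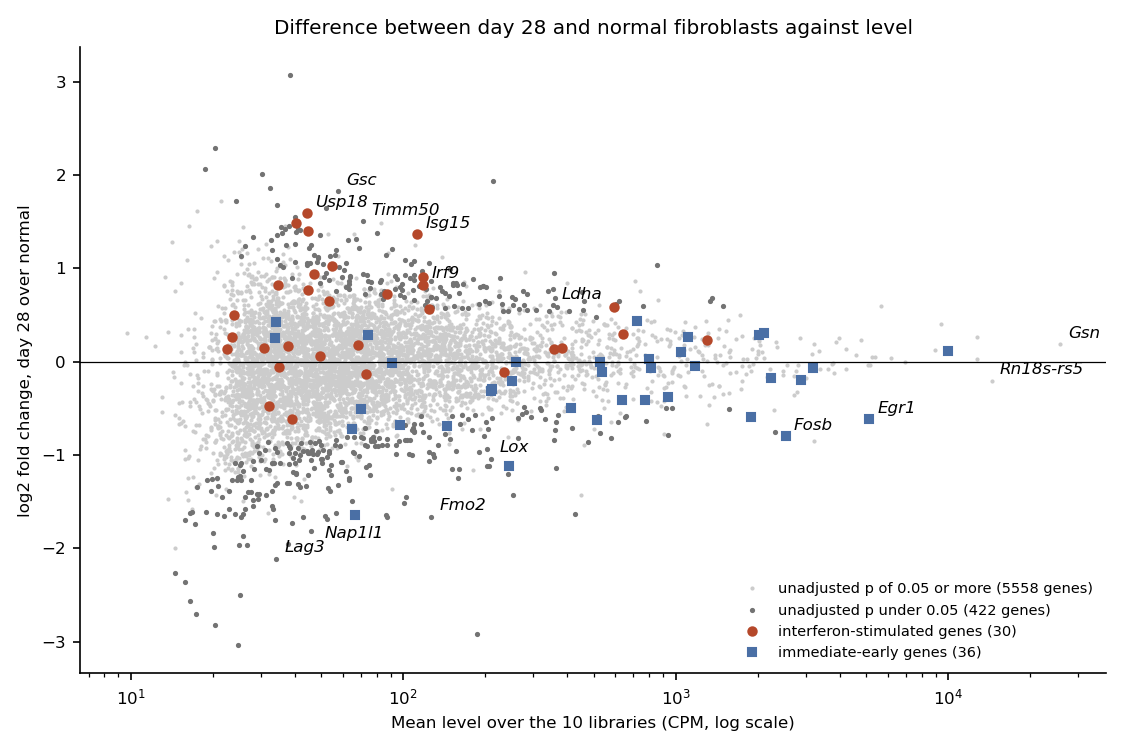
The log2 fold change of day 28 over normal fibroblasts (y axis) is plotted for 5980 genes against their mean level in CPM over the 10 libraries (x axis, log scale), with interferon-stimulated and immediate-early genes coloured. The 422 genes at an unadjusted p under 0.05 lie at the outer edge at every level, and the band is widest among genes under 50 CPM.

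The genes that stood lowest at day 28 were few and of mixed function. Fmo2, a flavin monooxygenase of drug and lipid metabolism, had the smallest p, with 63.6, 119, 31.0, 32.4 and 71.4 CPM in day 28 libraries, against 231, 232, 169, 194 and 125 CPM in normal libraries. The groups did not overlap, and its log2 fold change was -1.66 ± 0.39 (adjusted p = 0.287, edgeR). Nap1l1, a nucleosome assembly chaperone, had 31.8, 59.3, 24.8, 21.6 and 66.3 CPM in day 28 libraries, against 86.7, 212, 119, 131 and 119 CPM in normal libraries. This too was without overlap, at -1.67 ± 0.41 (adjusted p = 0.287, edgeR). Mbnl2, an RNA-binding regulator of splicing, had 79.5, 59.3, 93.0, 70.3 and 94.3 CPM in day 28 libraries, against 150.3, 157, 161, 192 and 192 CPM in normal libraries. The 5 day 28 values of Mbnl2 lay close together and under every normal value, and its log2 fold change was -1.07 ± 0.26 (adjusted p = 0.287, edgeR). Lox, the oxidase that cross-links collagen and elastin, had 175, 178, 124, 70.3 and 155 CPM in day 28 libraries, against 225, 277, 272, 293 and 329.9 CPM in normal libraries. No day 28 library reached the lowest normal one, and the log2 fold change was -1.04 ± 0.29 (adjusted p = 0.572, edgeR).

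Several rarer transcripts followed the same order with few counts behind them. Ncoa1, a coactivator of nuclear receptors, was read 1, 1, 1, 2 and 16 times in day 28 libraries, against 9, 48, 27, 26 and 23 times in normal libraries. Its CPM did not overlap either, and the log2 fold change was -1.81 ± 0.43 (adjusted p = 0.287, edgeR). Without day 28 replicate 5 it was the 1 gene called, at -2.82 with an adjusted p of 0.0487 (edgeR). Lag3, an inhibitory receptor best known from T cells, was read 0, 1, 3, 3 and 4 times in day 28 libraries and 9, 15, 22, 20 and 21 times in normal libraries, at -2.11 ± 0.51 (adjusted p = 0.287, edgeR). Siae, a sialic acid esterase, had 0, 0, 4, 0 and 3 counts at day 28 and 4, 51, 10, 17 and 12 in normal libraries, at -2.50 ± 0.67 (adjusted p = 0.572, edgeR), with day 28 replicate 3 inside the normal range. The predicted gene Gm4366 was at -1.65 ± 0.46 (adjusted p = 0.572, edgeR), with day 28 replicates 2 and 4 inside the normal range.

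A further 6 named genes stood lower without overlap, again of mixed function. Hspd1, the chaperonin of the mitochondrial matrix, had 0, 35.6, 49.6, 48.6 and 40.8 CPM in day 28 libraries, against 52.0, 109, 74.1, 125 and 96.1 CPM in normal libraries (-1.25 ± 0.42 on the log2 scale). Sdhd, a membrane anchor of succinate dehydrogenase, had 31.8, 23.7, 37.2, 37.8 and 51.0 CPM in day 28 libraries, against 52.0, 108, 86.5, 71.9 and 89.7 CPM in normal libraries (-1.08 ± 0.39). Slc25a24, a carrier of adenine nucleotides and phosphate, was at -1.08 ± 0.48. The low values of these 3 rest on 0 to 20 counts in each day 28 library. The others were Dab2, an endocytic adaptor, at -1.13 ± 0.36, Wnk1, a kinase that regulates ion transport, at -1.11 ± 0.37, and Rpl10-ps3, a ribosomal pseudogene, at -1.11 ± 0.53. Reads of Rpl10-ps3 may be shared with its parent gene, so its value is uncertain. The log2 fold changes of these 6 genes had adjusted p-values of 0.572 to 0.699 by edgeR.

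Of genes that stood higher without overlap, 10 are named, and their functions varied. Gsc, the homeobox factor goosecoid, had 111, 119, 49.6, 119 and 51.0 CPM in day 28 libraries, against 28.9, 15.2, 49.4, 26.6 and 6.41 CPM in normal libraries. The gap between the groups was 49.6 against 49.4 CPM at its narrowest, and the log2 fold change was 1.83 ± 0.51 (adjusted p = 0.572, edgeR). Ppme1, a demethylating enzyme of protein phosphatase 2A, had 95.3, 71.2, 124, 91.9 and 102 CPM in day 28 libraries, against 11.6, 40.0, 16.5, 61.3 and 57.7 CPM in normal libraries, at 1.31 ± 0.38 (adjusted p = 0.572, edgeR). Nsmce4a, a subunit of the SMC5/6 complex of DNA repair, had 191, 154, 105, 135 and 119.8 CPM in day 28 libraries, against 46.2, 71.7, 74.1, 63.9 and 57.7 CPM in normal libraries. The lowest day 28 library was at 105 CPM and the highest normal library at 74.1 CPM, and the log2 fold change was 1.09 ± 0.31 (adjusted p = 0.572, edgeR).

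Smaller differences without overlap were seen for 7 further genes. Rxrb, a retinoid X receptor, was at 1.07 ± 0.40 on the log2 scale and Men1, the tumour suppressor menin, at 0.86 ± 0.37. Trim28, the corepressor of KRAB zinc finger proteins, had 381, 237, 322, 249 and 214 CPM in day 28 libraries, against 173, 156, 206, 170.5 and 192 CPM in normal libraries, at 0.62 ± 0.25. Pfkp, the platelet-type phosphofructokinase of glycolysis, had 111, 107, 99.2, 129.7 and 119.8 CPM in day 28 libraries, against 40.5, 86.9, 98.8, 55.9 and 73.7 CPM in normal libraries, at 0.66 ± 0.34. Here day 28 replicate 3 and normal replicate 3 nearly met, at 99.2 and 98.8 CPM. The other 3 were Wipi2 of autophagy at 0.73 ± 0.35, Ubap1 of endosomal sorting at 0.70 ± 0.38 and Spryd3 at 0.65 ± 0.32 (0.39 without day 28 replicate 4). Adjusted p-values of these 7 genes ran from 0.579 to 0.737 (edgeR). Timm50, part of the import channel of the inner mitochondrial membrane, had a smaller p than any of them, with 79.5, 47.5, 86.8, 189 and 117 CPM in day 28 libraries, against 34.7, 34.5, 53.5, 40.0 and 32.0 CPM in normal libraries. One day 28 library fell inside the normal range, and the log2 fold change was 1.51 ± 0.37 (adjusted p = 0.287, edgeR).

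Interferon-stimulated genes leaned higher at day 28. Of 50 listed genes 30 were tested, and 25 of the 30 had a positive log2 fold change, with a median of 0.40 beside -0.02 over all tested genes. At an unadjusted p under 0.05, 8 stood higher (26.7%) and 0 lower, beside 2.89% and 4.16% of all genes. In bulk RNA, fewer cells of a type and less RNA per cell cannot be told apart. Usp18 had 31.8, 23.7, 136, 70.3 and 63.7 CPM in day 28 libraries, against 23.1, 20.7, 32.9, 18.6 and 22.4 CPM in normal libraries. Day 28 replicates 3, 4 and 5 lay above every normal library, while replicates 1 and 2, with 2 counts each, lay within the normal range. The log2 fold change was 1.59 ± 0.48, with a 95% interval of 0.62 to 2.57 (adjusted p = 0.572, edgeR). Irf9, the DNA-binding subunit of ISGF3, had 111, 119, 186, 146 and 176 CPM in day 28 libraries, against 133, 52.4, 128, 42.6 and 92.9 CPM in normal libraries. Its groups overlapped, since normal replicates 1 and 3 stood above day 28 replicates 1 and 2, and the log2 fold change was 0.82 ± 0.34 (95% interval 0.12 to 1.52, adjusted p = 0.663, edgeR).

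The other members with small p were transcripts of the same response. Cmpk2, a mitochondrial nucleotide kinase induced by interferon, had 31.8, 71.2, 99.2, 48.6 and 45.9 CPM in day 28 libraries, against 34.7, 26.2, 12.4, 23.98 and 9.61 CPM in normal libraries, at 1.48 ± 0.49. Rtp4, an interferon-induced chaperone of membrane receptors, had 47.7, 47.5, 136, 37.8 and 53.5 CPM in day 28 libraries, against 5.78, 29.0, 57.6, 7.99 and 22.4 CPM in normal libraries, at 1.40 ± 0.51. For Cmpk2 day 28 replicate 1 alone lay among the normal libraries, and for Rtp4 normal replicate 3 lay among the day 28 libraries. Isg15, Igtp and Ifi27l2a fell outside the rule for named genes and were chosen after their values were seen. Isg15, the ubiquitin-like protein that Usp18 removes, had 47.7, 131, 521, 32.4 and 71.4 CPM in day 28 libraries, against 52.0, 46.9, 53.5, 63.9 and 102 CPM in normal libraries. Day 28 replicate 3 was the highest of the 10 libraries and replicates 1, 4 and 5 lay within or below the normal range, at a log2 fold change of 1.36 ± 0.57. Igtp was at 1.02 ± 0.43, again highest in replicate 3, at 155 CPM. The abundant Ifi27l2a was at 0.29 ± 0.29, with overlapping groups. With replicate 3 left out, the log2 fold change was 0.09 for Isg15, 0.51 for Igtp, 0.91 for Rtp4 and 0.04 for Ifi27l2a. Adjusted p-values of these 5 genes ran from 0.572 to 0.871 (edgeR).

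The interferon list did not stand at one height across the day 28 mice. The median deviation of its members from the normal mean was -0.08, 0.00, 1.04, 0.45 and 0.44 on the log2 scale in day 28 replicates 1 to 5, against 0.12, -0.08, 0.17, -0.06 and -0.02 in normal replicates 1 to 5. Replicates 3, 4 and 5 stood above every normal library, replicate 2 within the normal range and replicate 1 level with the lowest normal library. Without replicate 3, 18 of 29 tested members were positive with a median of 0.14, and Usp18 was at 1.18. Without replicates 1 and 2, 28 of 30 were positive with a median of 0.59.

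Class I antigen presentation showed a smaller lean in the same direction. Of 14 tested genes 11 were positive, with a median of 0.23. At an unadjusted p under 0.05, 2 stood higher (14.3%) and 0 lower, beside 2.89% and 4.16% of all tested genes. H2-T22 had 127, 166, 136, 254 and 127 CPM in day 28 libraries, against 98.3, 102, 78.2, 131 and 96.1 CPM in normal libraries, at 0.68 ± 0.28. Only normal replicate 4 exceeded the lowest day 28 value. Tapbp, which bridges class I molecules to the peptide transporter, was at 0.65 ± 0.29, and Tap1, a subunit of that transporter, at 0.90 ± 0.45. With day 28 replicate 3 left out the median of the list was 0.06, with 9 of 14 positive, and Tap1 was at 0.49. H2-T22 was at 0.43 without day 28 replicate 4, and Tapbp at 1.00 without normal replicate 1. The 3 genes had adjusted p-values of 0.632 to 0.699 (edgeR). Class I genes include near-identical copies, so the count of H2-T22 is uncertain.

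All 4 tested class II genes were positive, with a median of 1.25, but few counts and 1 library carried much of this. H2-Aa, the class II alpha chain, was read 1, 0, 20, 11 and 27 times in day 28 libraries, against 3, 13, 10, 8 and 5 times in normal libraries, a log2 fold change of 1.45 ± 0.59 (adjusted p = 0.642, edgeR). H2-Ab1, the beta chain, had 47.7, 11.9, 341, 103 and 81.6 CPM in day 28 libraries, against 63.6, 12.4, 111, 34.6 and 22.4 CPM in normal libraries, at 1.48 ± 0.95. H2-Eb1 was at 1.05 ± 0.59 and Cd74, the invariant chain that escorts class II molecules, at 0.30 ± 0.50. Day 28 replicate 3 held the highest value of all 4 genes, and without it 3 of 4 were positive with a median of 0.50, H2-Ab1 at 0.62 and H2-Eb1 at 0.38. The same library had the most of C1qb, a macrophage transcript, with 0, 0, 24, 0 and 4 counts in day 28 libraries, against 4, 6, 1, 5 and 2 in normal libraries. C1qa had 0, 0, 11, 2 and 9 counts in day 28 libraries and 2, 16, 11, 5 and 3 in normal libraries. The 14 macrophage markers in the table, of 16 listed, summed to 175, 35.6, 341, 59.5 and 86.7 CPM in day 28 libraries, against 86.7, 117, 148, 115 and 102 CPM in normal libraries. Ptprc and Adgre1 had 0 counts in all 5 day 28 libraries. Without day 28 replicate 3 the log2 ratio of the mean macrophage sums was -0.353, and Cd74 was at -0.21. The part of macrophage RNA in the class II and interferon values was not tested.

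**Figure D2:**
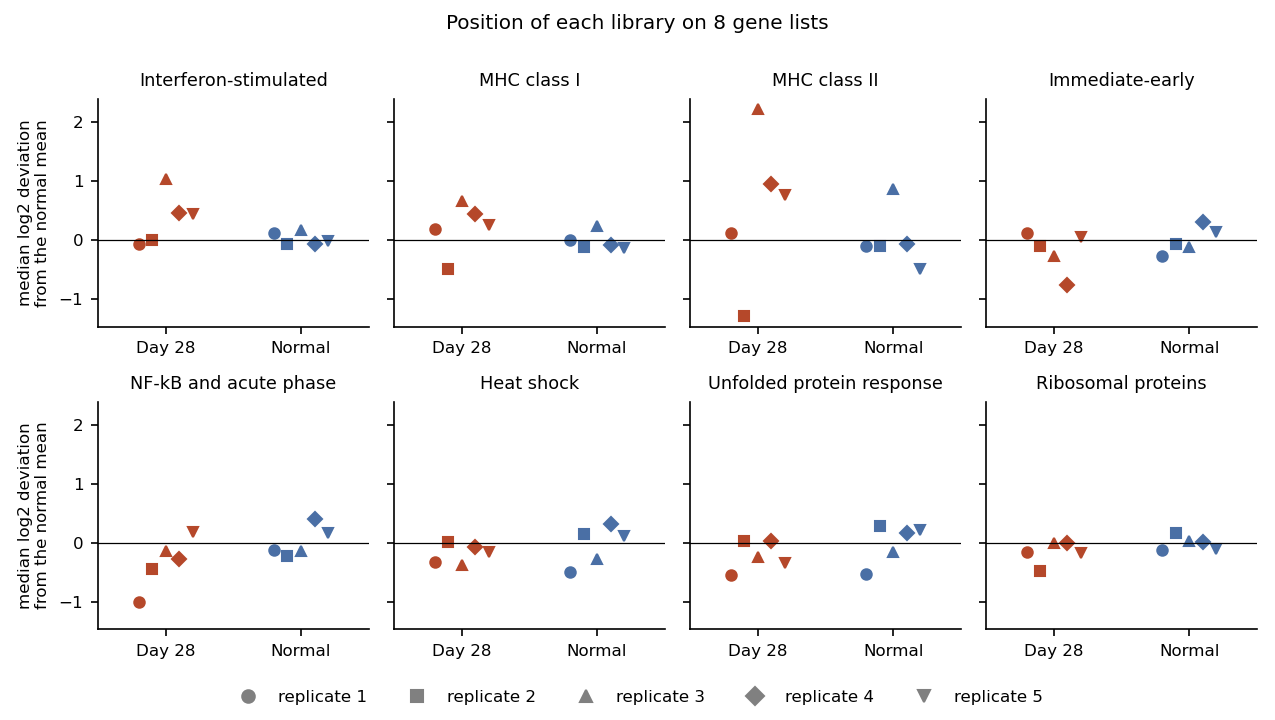
For 8 gene lists, each symbol gives the median over tested members of the log2 deviation from the mean of the 5 normal libraries (y axis), for day 28 libraries (left in each panel) and normal libraries (right), with the shape marking the replicate. Day 28 replicate 3 stands highest on the interferon-stimulated list at 1.04 and on the class II list at 2.22, and day 28 replicate 2 lowest on the class II list at -1.29.

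Immediate-early genes leaned lower. Of 36 tested genes 10 were positive, with a median of -0.19. At an unadjusted p under 0.05, 0 stood higher and 7 lower (19.4%), beside 2.89% and 4.16% of all tested genes. The median was -0.11 without day 28 replicate 4 (13 of 36 positive) and -0.11 without normal replicate 4 (15 of 36). Fosb had 1891, 1638, 1885, 1048 and 2781 CPM in day 28 libraries, against 2890.5, 3464, 3047, 4020.0 and 2687 CPM in normal libraries. Only day 28 replicate 5 reached the normal range, and the log2 fold change was -0.80 ± 0.23, with a 95% interval of -1.26 to -0.34 (adjusted p = 0.572, edgeR). Egr1, a zinc finger factor of the same early wave, had 4513, 5282, 3528, 2427 and 4578 CPM in day 28 libraries, against 4798, 7484, 5036, 7640.4 and 6086 CPM in normal libraries, at -0.61 ± 0.21 (adjusted p = 0.579, edgeR). Csrnp1, a nuclear protein induced by AXIN1, had 63.6, 226, 167, 141 and 168 CPM in day 28 libraries, against 202, 270.4, 210.0, 618 and 381 CPM in normal libraries, at -1.12 ± 0.39 (adjusted p = 0.579, edgeR). For both Egr1 and Csrnp1, day 28 replicate 2 alone reached the normal range. For Fos, the partner of Jun in AP-1 and an abundant member, the groups overlapped. It had 10917, 10326, 9207, 7194 and 14290.0 CPM in day 28 libraries, against 8614, 8165, 10870.0, 11812 and 8722 CPM in normal libraries, and its log2 fold change of 0.11 ± 0.20 had a 95% interval of -0.30 to 0.51. By library, the median deviation of the list was 0.11, -0.11, -0.27, -0.76 and 0.05 in day 28 replicates 1 to 5, against -0.28, -0.07, -0.13, 0.31 and 0.14 in normal replicates 1 to 5. Day 28 replicate 4 stood lowest and the other 4 day 28 libraries within the normal range. Immediate-early transcripts also answer to tissue dissociation, which the labels describe as enzymatic digestion with stirring for all samples, and its part in these values was not tested.

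Genes of NF-kB signalling and the acute phase had 7 of 21 positive, with a median of -0.29. At an unadjusted p under 0.05, 0 stood higher and 1 lower (4.76%), beside 2.89% and 4.16% of all tested genes. The median was -0.17 without day 28 replicate 1 and -0.17 without normal replicate 5, against -0.44 without normal replicate 3. Nfkb1, the p105 and p50 subunit, had 15.9, 59.3, 18.6, 37.8 and 48.4 CPM in day 28 libraries, against 52.0, 70.4, 49.4, 125 and 154 CPM in normal libraries, at -1.27 ± 0.46 (adjusted p = 0.579, edgeR). Its inhibitor Nfkbia was at -0.48 ± 0.26 and the apoptosis inhibitor Birc3 at -0.99 ± 0.52, with Nfkbia at -0.25 without normal replicate 4. Normal replicates 4 and 5 were the highest 2 libraries for all 3 genes. Saa3, an acute-phase apolipoprotein, was at 0.03 ± 0.99. Lcn2, lipocalin 2, was too rare to test, with 0 counts over the day 28 libraries and 8 over the normal libraries, not scaled to depth.

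Secreted signals to immune cells leaned neither way, with 7 of 13 tested genes positive and a median of 0.09. At an unadjusted p under 0.05, 1 stood higher (7.69%) and 1 lower (7.69%), beside 2.89% and 4.16% of all tested genes. Cxcl14, a chemokine for monocytes and dendritic cells, had 477, 344, 329, 378 and 306 CPM in day 28 libraries, against 312, 200.0, 338, 192 and 208 CPM in normal libraries, at 0.55 ± 0.24 (adjusted p = 0.699, edgeR). Ccl2, which recruits monocytes, was read 0, 0, 2, 3 and 12 times in day 28 libraries, against 0, 55, 3, 34 and 44 times in normal libraries, at -1.96 ± 0.92 (adjusted p = 0.699, edgeR). Normal replicates 2, 4 and 5 held nearly all reads of Ccl2, and normal replicate 1 held none. Cxcl12, the ligand of Cxcr4, had 445, 356, 285, 427 and 316 CPM in day 28 libraries, against 219.7, 239, 288, 269 and 304 CPM in normal libraries, at 0.45 ± 0.26. Ccl11, which recruits eosinophils, was at 0.70 ± 0.35 (0.38 without day 28 replicate 4), and Il6 at -1.40 ± 0.85 with 0, 1, 1, 1 and 6 counts in day 28 libraries and 1, 11, 3, 28 and 4 in normal libraries, or -0.38 without normal replicate 4. Cd274, the checkpoint ligand PD-L1, had 5 counts over the day 28 libraries and 7 over the normal libraries, not scaled to depth and too few to test. Complement genes had 4 of 10 positive and a median of -0.06, with C2 first by p at -0.45 ± 0.29 (-0.22 without normal replicate 1). Leaving out 1 library turned the medians of both the chemokine and the complement list, which ranged from -0.09 to 0.19 and from -0.17 to 0.04.

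**Figure D3:**
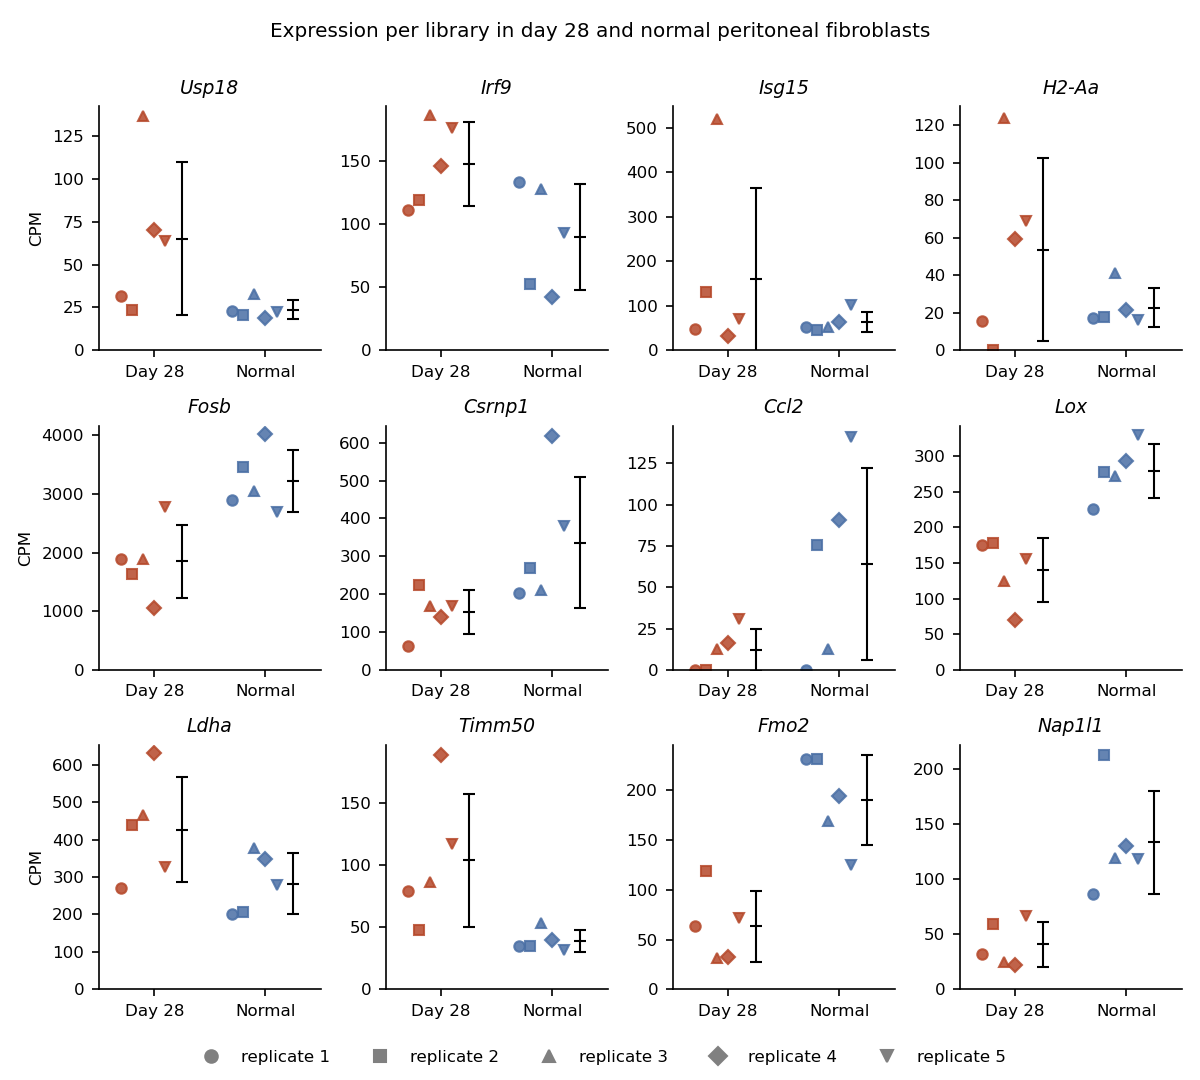
Levels in CPM (y axis, from 0) of 12 genes in each of the 5 day 28 libraries (left) and 5 normal libraries (right), with the shape marking the replicate and bars giving mean ± SD, cropped at 0. Day 28 and normal libraries do not overlap for Lox, Fmo2 and Nap1l1, and day 28 replicate 3 stands highest for Usp18, Irf9, Isg15 and H2-Aa.

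The collagens of the matrix leaned little either way, and single genes of the collagen-modifying list differed in direction. Of 31 tested genes of the fibrillar and interstitial matrix 18 were positive, with a median of 0.07. At an unadjusted p under 0.05, 1 stood higher (3.23%) and 0 lower, beside 2.89% and 4.16% of all tested genes. Col1a1, whose promoter drives the reporter, had 1605, 4652, 2430.5, 1248 and 1004 CPM in day 28 libraries, against 1127, 1642, 1338, 2049 and 3059 CPM in normal libraries. Its log2 fold change of 0.24 ± 0.36 had a 95% interval of -0.51 to 0.98. Col1a2, the partner chain, was at 0.03 ± 0.23 with an interval of -0.44 to 0.49, and Col3a1, type III collagen, at 0.40 ± 0.23. Col5a3 and Col5a1, chains of the type V collagen that seeds fibrils, were at 0.60 ± 0.24 and 0.44 ± 0.23 (adjusted p = 0.632 and 0.724, edgeR). Day 28 replicate 2 had the most of all 5 collagen chains, and without it Col1a1 was at -0.23, Col1a2 at -0.31, Col3a1 at 0.18, Col5a3 at 0.33 and Col5a1 at 0.27. The median of the list was then -0.08, with 13 of 31 positive. Sparc, a collagen-binding glycoprotein, was at 0.27 ± 0.19.

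Basement membrane genes had 10 of 14 positive and a median of 0.21. Col18a1, the collagen that releases endostatin, had 286, 273, 112, 162 and 155 CPM in day 28 libraries, against 75.2, 82.8, 148, 87.9 and 138 CPM in normal libraries, at 0.82 ± 0.31 (adjusted p = 0.579, edgeR). Col4a1, of the type IV network, was at 0.37 ± 0.25. Replicates 1 and 2 were the highest day 28 libraries for both genes, and without replicate 2 the median was 0.11 and Col4a1 was at 0.17. Small leucine-rich proteoglycans had 5 of 8 positive, but 3 of 8 without day 28 replicate 4. Fmod, fibromodulin, had 2114, 1306, 1513, 1643 and 1851 CPM in day 28 libraries, against 515, 1535, 1013, 754 and 1399.7 CPM in normal libraries, at 0.68 ± 0.31 (adjusted p = 0.699, edgeR), and Dcn, decorin, was at 0.60 ± 0.43 with 14998 CPM in day 28 replicate 4, without which it was at 0.08.

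Among collagen-modifying enzymes 15 of 19 were positive, with a median of 0.12. At an unadjusted p under 0.05, 2 stood higher (10.5%) and 1 lower (5.26%), beside 2.89% and 4.16% of all tested genes. The lower one was Lox, described above. Plod1, a lysyl hydroxylase that prepares the cross-link sites, had 334, 487, 254, 503 and 173 CPM in day 28 libraries, against 219.7, 252, 140.0, 234 and 163 CPM in normal libraries, at 0.76 ± 0.27 (adjusted p = 0.579, edgeR). Crtap, part of the prolyl 3-hydroxylation complex, had 381, 297, 403, 232 and 270.2 CPM in day 28 libraries, against 202, 207, 243, 199.8 and 131 CPM in normal libraries, at 0.67 ± 0.27 (adjusted p = 0.632, edgeR). The Crtap groups overlapped in 1 library of each group. Matrix proteases and their inhibitors had 6 of 16 positive. Adamts15, a proteoglycan-cleaving protease, was at 1.45 ± 0.72 with 0 counts in 2 day 28 libraries, and at 0.79 without day 28 replicate 2.

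Genes of the myofibroblast cytoskeleton lay near the middle of all genes, with 10 of 18 positive, a median of 0.07 and 0 at an unadjusted p under 0.05 in either direction. Without day 28 replicate 2, 8 of 18 were positive with a median of -0.10. Acta2, smooth muscle actin, had 95.3, 189.9, 55.8, 162 and 102 CPM in day 28 libraries, against 46.2, 287, 37.1, 66.6 and 138 CPM in normal libraries. The log2 fold change of -0.04 ± 0.46 had a 95% interval of -0.99 to 0.91, too wide to show a moderate difference in either direction. Cnn2, a calponin, was at 0.40 ± 0.27 (0.23 without normal replicate 4). Pdgfra, the platelet-derived growth factor receptor of fibroblasts, was at -0.08 ± 0.33, and Thy1, a surface glycoprotein of fibroblasts, at 1.04 ± 0.34 (adjusted p = 0.572, edgeR). Thy1 had 779, 736, 2294, 854 and 1045 CPM in day 28 libraries, against 861, 280.0, 844, 322 and 528 CPM in normal libraries, with day 28 replicate 3 again highest, and was at 0.61 without it. Ly6a, the stem-cell antigen Sca-1 and an interferon-responsive gene, was at 0.86 ± 0.52, and at 0.56 without day 28 replicate 4 and 1.497 without normal replicate 2.

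Glycolysis and hypoxia genes had 13 of 24 positive, with a median of 0.16. At an unadjusted p under 0.05, 2 stood higher (8.33%) and 0 lower, beside 2.89% and 4.16% of all tested genes. The median was 0.04 without day 28 replicate 4 and 0.27 without day 28 replicate 5. Ldha had 270.1, 439, 465, 632 and 326 CPM in day 28 libraries, against 202, 206, 379, 349 and 279 CPM in normal libraries. The groups overlapped, with day 28 replicates 1 and 5 under the highest normal library, and the log2 fold change was 0.61 ± 0.26 with a 95% interval of 0.09 to 1.13 (adjusted p = 0.663, edgeR). Adm, adrenomedullin, a vasodilator peptide raised by hypoxia, had 493, 154, 645, 399.9 and 525 CPM in day 28 libraries, against 399, 150.4, 391, 237 and 160.2 CPM in normal libraries, at 0.77 ± 0.36 (adjusted p = 0.699, edgeR). Eno1, an enolase, was at 0.90 ± 0.46. Antioxidant genes had 5 of 17 positive, and here Txn1, thioredoxin, had 143, 142, 136, 97.3 and 214 CPM in day 28 libraries, against 121, 526, 264, 365 and 426 CPM in normal libraries, at -1.20 ± 0.37 (adjusted p = 0.572, edgeR). Normal replicate 1 alone fell within the day 28 range. Sod1, the cytosolic superoxide dismutase, was at -0.57 ± 0.26 (-0.37 without normal replicate 2) and Prdx5, a peroxiredoxin, at 0.61 ± 0.26 (0.33 without day 28 replicate 3).

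**Figure D4:**
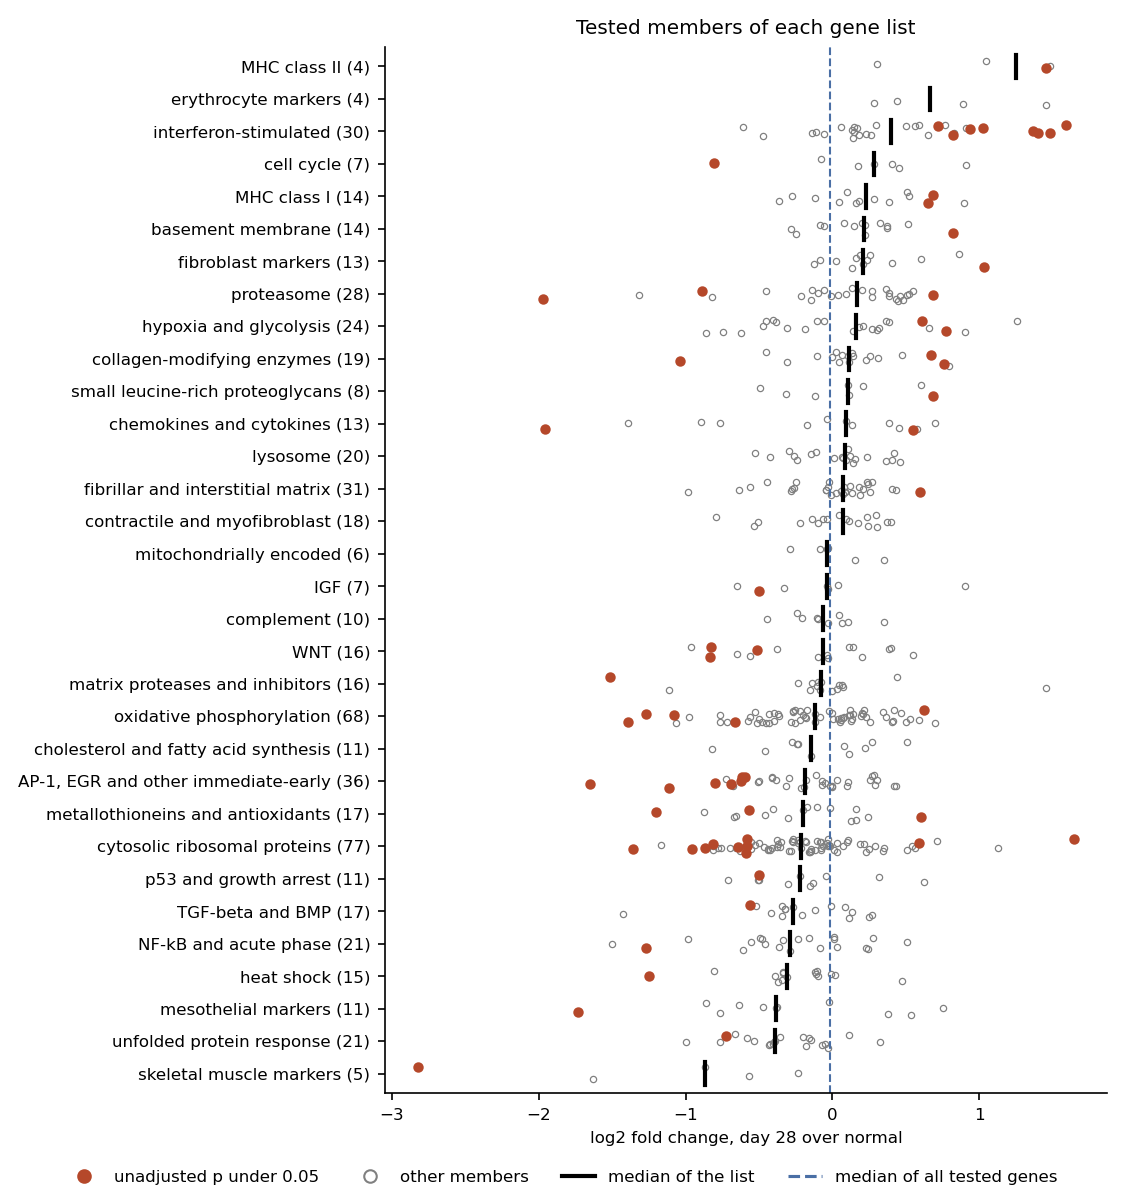
The log2 fold change of day 28 over normal fibroblasts (x axis) of each tested member of the lists with at least 4 tested genes (rows, with their number), ordered by the median of the list (black bar). Medians run from 1.25 for class II genes to -0.87 for skeletal muscle markers, beside -0.02 for all tested genes (dashed line).

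Chaperone genes stood lower more often than higher. Only 2 of 15 heat shock genes were positive, with a median of -0.31, and 2 of 21 genes of the unfolded protein response, with a median of -0.39. At an unadjusted p under 0.05 each list had 0 higher and 1 lower, which were 6.67% and 4.76% of their members. Over all tested genes these shares were 2.89% higher and 4.16% lower, so the counts add little to the lean by sign. Single libraries moved the heat shock median: it was -0.13 without day 28 replicate 3, -0.13 without day 28 replicate 5, -0.12 without normal replicate 2 and -0.12 without normal replicate 4. The unfolded protein response median was -0.25 without normal replicate 2. Hspa8, the constitutive cytosolic chaperone, had 1096, 783, 1060.2, 1097 and 1313 CPM in day 28 libraries, against 1202, 1272, 1486, 1588 and 1406 CPM in normal libraries, at -0.37 ± 0.19, while Hspb8, a small heat shock protein, was at 0.48 ± 0.27 (0.21 without day 28 replicate 4). Hsp90b1, the chaperone GRP94 of the endoplasmic reticulum, had 143, 427, 211, 281 and 301 CPM in day 28 libraries, against 277, 724, 272, 482 and 496 CPM in normal libraries, at -0.73 ± 0.35 (adjusted p = 0.699, edgeR). Ddit3, the stress factor CHOP, was at -0.76 ± 0.41. The heat shock list had a median deviation of -0.33, 0.00, -0.38, -0.08 and -0.16 in day 28 replicates 1 to 5, against -0.49, 0.15, -0.29, 0.31 and 0.10 in normal replicates 1 to 5. Normal libraries spread more widely than day 28 libraries by this measure, and normal replicate 1 was the lowest of the 10.

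Cytosolic ribosomal protein genes had 20 of 77 positive, with a median of -0.21. At an unadjusted p under 0.05, 2 stood higher (2.60%) and 8 lower (10.4%), beside 2.89% and 4.16% of all tested genes. With normal replicate 2 left out the median was -0.09, with 28 of 77 positive. Rpl31 had 286, 166, 440.2, 357 and 423 CPM in day 28 libraries, against 532, 777, 585, 650.0 and 573 CPM in normal libraries, without overlap and at -0.86 ± 0.26 (adjusted p = 0.572, edgeR). Rpl17 had 461, 332, 285, 470.2 and 540.4 CPM in day 28 libraries, against 445, 1007, 659, 690.0 and 884 CPM in normal libraries, at -0.82 ± 0.28 (adjusted p = 0.579, edgeR). Rps27l, a paralogue of Rps27 that p53 induces, was at -1.36 ± 0.41. These genes have many pseudogenes with which reads may be shared, so their counts are uncertain. The nuclear genes of oxidative phosphorylation had 30 of 68 positive and a median of -0.12. At an unadjusted p under 0.05, 1 stood higher (1.47%) and 4 lower (5.88%), beside the same 2.89% and 4.16% of all tested genes. Cox4i1, a subunit of cytochrome c oxidase, had 826, 546, 794, 799.9 and 696 CPM in day 28 libraries, against 532, 375, 725, 330.3 and 432 CPM in normal libraries, at 0.62 ± 0.24, while Ndufb3 of complex I was at -1.40 ± 0.54 on fewer than 10 counts in every day 28 library. Without normal replicate 2 the median of the list was -0.04. The 6 tested mitochondrially encoded genes had a median of -0.03, which single libraries set: it was -0.60 without day 28 replicate 4, with 0 of 6 positive, and 0.60 without normal replicate 4, with 6 of 6 positive. Their median deviation was 0.64, -0.06, -0.35, 1.33 and -1.12 in day 28 replicates 1 to 5, against 0.33, -1.30, -0.29, 1.48 and -0.27 in normal replicates 1 to 5. Proteasome genes had 17 of 28 positive, and 14 of 28 without day 28 replicate 4. At an unadjusted p under 0.05, 1 stood higher (3.57%) and 2 lower (7.14%), again beside 2.89% and 4.16% of all tested genes. Psmb4, a core subunit, was at 0.68 ± 0.23 (adjusted p = 0.572, edgeR), with 302, 463, 539, 605 and 301 CPM in day 28 libraries, against 254, 276, 288, 261 and 304 CPM in normal libraries, and Psmd1, of the regulatory particle, was at -0.89 ± 0.30 with no overlap. Lysosomal genes had 13 of 20 positive and 0 at an unadjusted p under 0.05, with the tetraspanin Cd63 first by p at -0.43 ± 0.24 (-0.21 without normal replicate 2).

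In the TGF-beta, BMP and WNT pathways of the stroma more genes stood under the normal level than over it, but the WNT list turned in some settings. Leaving out day 28 replicate 3 gave 9 of 16 positive WNT genes with a median of 0.04. With replicate number as a block on the 2 groups alone, 7 of 13 were positive with a median of 0.01. In the TGF-beta and BMP list 5 of 17 were positive, with a median of -0.27, or -0.16 without day 28 replicate 3. At an unadjusted p under 0.05, 1 stood lower (5.88%), beside 4.16% of all tested genes. Tgfbr3, the coreceptor betaglycan, had 238, 332, 192, 141 and 217 CPM in day 28 libraries, against 329.5, 475, 321, 298 and 183 CPM in normal libraries, at -0.56 ± 0.26 (-0.37 without normal replicate 2). Ltbp1, which holds latent TGF-beta in the matrix, was at -0.52 ± 0.28 and the ligand Tgfb1 at 0.13 ± 0.47. In the WNT list 6 of 16 were positive and 3 stood lower (18.8%), namely the coreceptor Lrp6 at -0.84 ± 0.33 (-1.26 without day 28 replicate 5) and the secreted modulators Dkk3 at -0.83 ± 0.35 and Sfrp4 at -0.51 ± 0.25. Sfrp4 had 1112, 1163, 1122, 1573 and 1468 CPM in day 28 libraries, against 2162, 1608, 2643, 1407 and 1403 CPM in normal libraries, with normal replicates 4 and 5 inside the day 28 range. Adjusted p-values of these genes ran from 0.624 to 0.975 (edgeR).

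Of 7 insulin-like growth factor genes 2 were positive. Igf1 was at -0.65 ± 0.41 (-0.24 without normal replicate 2) and the binding protein Igfbp3, with 731, 973, 595, 670.2 and 862 CPM in day 28 libraries, against 1434, 1022, 1322, 1015 and 625 CPM in normal libraries, at -0.50 ± 0.24 (adjusted p = 0.699, edgeR). Only 7 of 20 proliferation genes had enough counts to test. Of these 5 were positive, while Pcna, the replication clamp, was at -0.80 ± 0.38. Growth arrest and p53-linked genes had 2 of 11 positive, with Gas1 at -0.50 ± 0.24 (-0.30 without day 28 replicate 3) and the apoptosis effector Bax at 0.62 ± 0.31. Sterol and fatty acid synthesis had 5 of 11 positive and 0 at an unadjusted p under 0.05 in either direction.

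Transcripts of other cell types were present at low levels, and no summed list passed the test after adjustment. Summed markers were compared for 12 lists by two-sided exact permutation tests over the 10 libraries, with Benjamini-Hochberg adjustment over the lists. Schwann cell markers, of nerve sheaths, summed to 556, 226, 254, 227 and 872 CPM in day 28 libraries, against 150.3, 110.4, 156, 98.6 and 272 CPM in normal libraries (exact permutation p = 0.0318, adjusted p = 0.381). The groups overlapped, and day 28 replicate 5 was the highest. Skeletal muscle markers summed to 397, 178, 205, 124 and 184 CPM in day 28 libraries, against 422, 102, 255, 501 and 448 CPM in normal libraries (exact permutation p = 0.175, adjusted p = 0.438). All 5 tested muscle genes were negative, and Tnni2, a fast troponin, had 1, 0, 1, 0 and 2 counts in day 28 libraries and 8, 7, 8, 16 and 14 in normal libraries, at -2.82 ± 0.85 (adjusted p = 0.572, edgeR).

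Mesothelial markers summed to 889.9, 676, 818, 935 and 507 CPM in day 28 libraries, against 1729, 858, 704, 783 and 657 CPM in normal libraries (exact permutation p = 0.571, adjusted p = 0.762), with normal replicate 1 far above the rest. Upk1b, a uroplakin of the peritoneal lining, had 0, 35.6, 12.4, 10.8 and 22.9 CPM in day 28 libraries, against 150.3, 62.1, 32.9, 18.6 and 44.8 CPM in normal libraries, at -1.73 ± 0.63 (adjusted p = 0.579, edgeR), and Cldn15, a claudin, was at -0.64 ± 0.38 (-0.28 without normal replicate 1). Erythrocyte markers summed to 68.2 to 397 CPM in day 28 libraries and 64.1 to 162 CPM in normal libraries. Endothelial markers summed to 347 to 534 CPM in day 28 libraries and 334 to 397 CPM in normal libraries, and mural cell markers to 155 to 477 CPM in day 28 libraries and 162 to 301 CPM in normal libraries. The adjusted p-values of these 3 lists were 0.438, 0.438 and 0.587 by the exact permutation test. Macrophage and adipocyte markers both had an adjusted p of 0.875 by that test, B cell and epithelial markers of 0.762, neutrophil markers of 1 and the fibroblast markers of 0.438. The table held only 1 of 6 listed neutrophil markers (Ly6g), 2 of 6 B cell markers and 3 of 8 epithelial markers. Markers of T and NK cells were not in the table. The part of these cells in the values of other genes was not tested.

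Lox, Cxcl14 and 2 ribosomal protein genes were called at the end stage, in a comparison that uses the same day 28 libraries. Lox, Rpl31 and Rpl17 were named from the comparison with normal libraries, in which they stood low at day 28. Their rise from day 28 may therefore be overstated. End stage and normal libraries were not compared by a test here. By edgeR, 23 genes of 5980 were higher at the end stage than at day 28 (0.385%) and 1 was lower (0.0167%), and between day 28 and day 7 0 were called in either direction (0%). Lox was at 279 ± 37.8 CPM in normal (SD, n = 5), 277 ± 37.1 CPM in day 7 (SD, n = 5), 141 ± 44.8 CPM in day 28 (SD, n = 5) and 598 ± 336 CPM in end stage libraries (SD, n = 4). The 4 end stage libraries had 513, 449, 1089.8 and 339 CPM, all above every day 28 library, and Lox rose by 2.16 ± 0.30 on the log2 scale over day 28 (adjusted p = 0.000126, edgeR). Rpl31 averaged 665 ± 190.0 CPM in day 7, 334 ± 112 CPM in day 28 and 813 ± 274 CPM in end stage libraries, and Rpl17 829 ± 335, 418 ± 105 and 1007 ± 428 CPM (SD, n = 5, 5 and 4). Both were called higher at the end stage than at day 28, at 1.25 ± 0.27 and 1.27 ± 0.30 (adjusted p = 0.0222 and 0.0437, edgeR). Cxcl14, higher at day 28 than in normal libraries without a call, averaged 806 ± 195 CPM at the end stage (SD, n = 4), a further 1.15 ± 0.25 (adjusted p = 0.0222, edgeR).

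Usp18 and Fosb took other courses. Usp18 averaged 23.6 ± 5.52 CPM in normal, 26.0 ± 16.8 CPM in day 7, 65.2 ± 44.5 CPM in day 28 (SD, n = 5 each) and 29.8 ± 16.6 CPM in end stage libraries (SD, n = 4). Day 28 had the highest mean, but the difference to day 7 was 1.25 ± 0.45 (adjusted p = 0.452, edgeR) and that of the end stage to day 28 -1.25 ± 0.50 (adjusted p = 0.359, edgeR). Fosb averaged 3222 ± 529.6 CPM in normal, 1969.9 ± 341 CPM in day 7, 1849 ± 624 CPM in day 28 (SD, n = 5 each) and 1520.0 ± 359 CPM in end stage libraries (SD, n = 4). The log2 fold change of Fosb between day 28 and day 7 was -0.09 ± 0.23 (adjusted p = 0.951, edgeR).

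**Figure D5:**
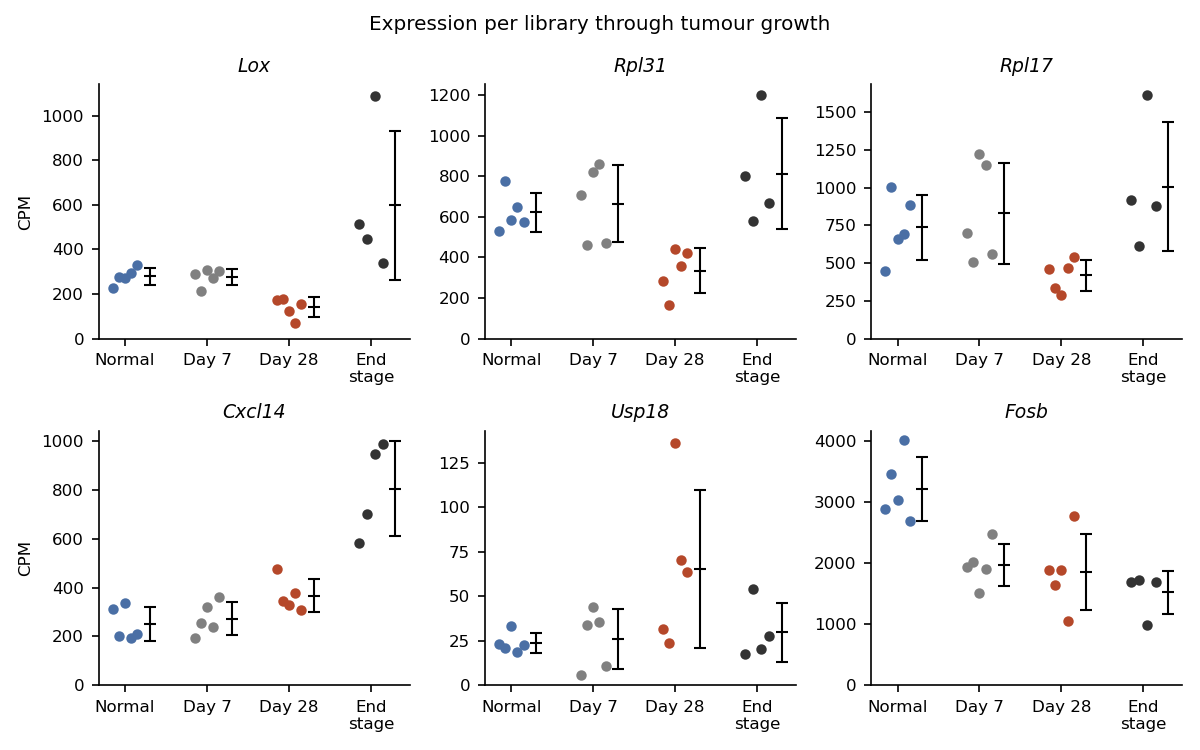
Levels in CPM (y axis, from 0) of 6 genes in each library of the 4 groups in the order of tumour growth (5, 5, 5 and 4 libraries), with bars giving mean ± SD. The day 28 libraries of Lox lie under all libraries of the other 3 groups, and the end stage libraries of Cxcl14 lie above all others.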

How the data were processed

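Whole-transcriptome MARS-seq was performed on sorted Col1a1-YFP peritoneal fibroblasts. The deposited table gives the authors' raw counts for each gene in each library, unnormalized according to its headers. Per the file headers, the authors also computed a log2 fold change with unadjusted and adjusted p-values for 28 days over normal. DESeq2 and genome build GRCm39 are named per the submitters' processing notes, without versions. Not given in the sources used here are the aligner, counting tool, annotation, strand handling and any use of molecular identifiers, and counts may hold amplification copies.

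From the deposited counts, 5980 of 12799 genes passed filterByExpr (minimum count 10, 4 groups, all 19 libraries), a filter whose group size also used the other stages. These genes held 93.2% to 94.9% of the counts. The main test was edgeR 4.0.16 (quasi-likelihood, TMM, Benjamini-Hochberg) in R 4.3.3, fitted over all 4 groups, which share 1 estimate of the spread, with day 28 and normal contrasted. Reported ± values of log2 fold changes are standard errors. Per-library levels are CPM, each count scaled to the effective library size (counts in tested genes times the TMM factor), and so differ slightly from counts over the library total. Deviations by library are on log2 CPM with a prior count of 2. Depths ran from 66061 to 784373 counts in the 10 libraries compared, and all intervals are 95%. The edgeR test was also run on simulated counts, and that outcome is not reported here. Alternatives were DESeq2 1.42.0, limma 3.58.1 (voom with quality weights), other scalings and filters, the 2 groups alone, a replicate block, and leaving out libraries. Each library is labelled as a biological replicate, and p-values measure the spread between such libraries.

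Named genes were Usp18, Irf9, Fosb and Ldha, a set of stromal and inflammatory genes, up to 10 genes per direction without overlap between groups at a mean of 50 CPM or more, up to 3 genes per list with the smallest p, the 10 genes with the smallest p, and the 10 with the highest level, of which those the text turns on are given, while a few are not reported here. Genes with fewer counts were not analysed here by a test. Genes and lists were chosen with earlier results of these data known. Python 3.11.15, pandas 2.3.3 and scipy 1.17.1 were used for tables and permutation tests. Promoter sequences came from RefSeq (GRCm38.p6), while the counts were made on GRCm39, and windows were joined to genes by symbol.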

Additional observations from a re-analysis of the deposited data

Results flagged for a closer look

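In each group of 5 libraries the highest and the lowest value of every named gene and every summed marker list was set against the others, over 238 groups. Chance flags about 1 in 20 groups, and in 24 cases 1 library stood far from the others of its group. In 7 of these it was day 28 replicate 3, always as the highest. That library had 136 CPM of Rtp4, 521 CPM of Isg15 and 155 CPM of Igtp, all interferon-stimulated, where the other 4 day 28 libraries lay between 32.4 and 131 CPM. It also had 86.8 CPM of H2-Eb1 and 341 CPM of H2-Ab1, of class II presentation, 149 CPM of the macrophage gene C1qb and 2294 CPM of Thy1.

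In the other day 28 libraries, Hspd1 was at 0 CPM in replicate 1, Col1a2 at 23830 CPM and the B cell markers at 11.9 CPM in replicate 2, Spryd3 at 238 CPM, Rn18s-rs5 at 43770 CPM, the neutrophil markers at 59.5 CPM and the epithelial markers at 37.8 CPM in replicate 4, and Ncoa1 at 40.8 CPM and Nfkbia at 925 CPM in replicate 5. All of these were the highest of their group except Hspd1, the lowest. The neutrophil value is that of 1 gene, Ly6g, the only 1 of 6 listed markers in the table. The B cell sum held 2 of 6 listed markers and the epithelial sum 3 of 8.

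Among normal libraries, the mesothelial markers at 1729 CPM and the mural cell markers at 301 CPM were highest in replicate 1. Cd63 at 1359 CPM, Rn18s-rs5 at 50270 CPM and the neutrophil markers at 2.76 CPM were highest in replicate 2. Replicate 3 had the highest H2-Aa, at 41.2 CPM, and the lowest Col5a3, at 478 CPM, and replicate 4 the highest Il6, at 74.6 CPM. Neither group's values were left out of a result for this reason.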

How the results depend on the processing

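The count of called genes was 0 in both directions under DESeq2, limma-voom, both other scalings, the 3 other filters and sample choices with no block, and the omission of day 28 replicates 1 and 2 or of libraries under 150000 counts. With a replicate block on the 2 groups alone, 1 gene was called higher and 3 lower (Fmo2, Ifrd1 and Meg3), with Fmo2 at -1.59 (edgeR adjusted p = 0.0403). The labels number the biological replicates and do not say whether equal numbers in the 2 groups belong together. Same-numbered deviations correlated at 0.0149 to 0.287 over 1751 genes, and 2 of 5 pairs correlated best with their own number. These correlations cannot show whether the numbers pair the libraries, and a shared effect of replicate number was not tested. Leaving out 1 library gave 0 to 1 gene called lower, namely Ncoa1 without day 28 replicate 5, and 0 called higher.

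Against 422 genes at an unadjusted p under 0.05, there were 267 of 3865 with the 2 groups alone, 155 of 1628 among abundant genes and 925 of 12777 with no filter, where the median of all genes was -0.14. Leaving out 1 library gave 284 (without normal replicate 2) to 522 (without normal replicate 1). The heat shock median of -0.31 ranged from -0.42 to -0.12 when 1 library was left out. Of 3004 values over 107 genes, 2961 kept their direction and side of the threshold, and 98 genes never changed sign. These counts are no measure of how firm the differences are. No gene passed the threshold in the main fit, and many of these genes were picked for a small p or for groups without overlap. Some settings left out only a day 7 or end stage library. Of 1061 list medians, 22 moved beyond the spread. Intervals were wide for the rare genes: 1.04 was the median half-width of the interval under 50 CPM.

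The 9 genes that changed sign had values near 0, and the cause was not tested. Without day 28 replicates 1 and 2 and without libraries under 150000 counts, Col1a1 was at -0.24 and -0.24, Col1a2 at -0.38 and -0.38, Tgfb1 at -0.15 and -0.15, and Rn18s-rs5 at 0.23 and 0.25. Under limma-voom Acta2 was at 0.10, Col1a2 at -0.10 and Rn18s-rs5 at 0.0602. Under DESeq2 Acta2 was at 0.0296 and Saa3 at -0.19. With no filter Col1a2 was at -0.0699 and Saa3 at -0.0169. With the replicate block Acta2 was at 0.25, Col1a2 at -0.0535 and Pdgfra at 0.045. Leaving out 1 library, Acta2 ranged from -0.25 to 0.68, Cd74 from -0.21 to 0.61, Col1a1 from -0.23 to 0.51, Col1a2 from -0.31 to 0.19, Fos from -0.0191 to 0.21, Pdgfra from -0.28 to 0.26, Rn18s-rs5 from -1.41 to 0.99, Saa3 from -0.40 to 0.73 and Tgfb1 from -0.16 to 0.47. The log2 ratio of summed markers ranged from -0.125 to 0.381 for adipocytes, from -0.353 to 0.540 for macrophages (lowest without day 28 replicate 3) and from -0.412 to 0.0284 for mesothelium (highest without normal replicate 1). The exact permutation p of the Schwann cell sum was 0.0635 when any of 6 libraries was left out.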
